A study of Mus musculus with 24 samples.

Results

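The probes described here carry no gene name on the array: the array maker named each of them by a stretch of the mouse genome (build mm9) and a strand letter. Of 16194 such position-named probes among the 55681 non-control probes, 5922 (36.6%) were well above local background in the sample channel on at least 3 of the 6 arrays of cells given solvent (DMSO) alone, and these 5922 are the members of the class. They came from 2201 named regions, or from 1485 separate loci once overlapping regions were merged. The same rule was met by 18321 probes with a RefSeq accession (59%), of which 16396 were for curated protein-coding transcripts.

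Mammalian genomes are transcribed well beyond their protein-coding genes. Long noncoding RNAs are spliced or unspliced transcripts without a coding frame, several of which act in the nucleus, and enhancer RNAs are short-lived and mostly unpolyadenylated transcripts that RNA polymerase II makes at active enhancers, often on both strands. Release of paused polymerase into elongation depends on the kinase complex P-TEFb. Super-enhancers are dense clusters of enhancers, and in Th1 cells many of them are bound by T-bet, the transcription factor that specifies this lineage.

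The samples were Th1 and Th2 cells, differentiated in culture from CD4+ T cells of female C57BL/6 mice, and each array held 1 sample in the Cy3 channel against 1 reference of naive CD4+CD62L+CD25-CD44lo T cells, sorted from lymph nodes and spleens, in the Cy5 channel. Cells were left unstimulated or were reactivated, and were given DMSO, 50 or 500 nM JQ1 (a BET bromodomain inhibitor) or 1 or 10 µM flavopiridol (an inhibitor of cyclin-dependent kinases, P-TEFb included). All 24 combinations were single arrays: Th1 and Th2 cells had each drug and dose for 6 hr, and Th1 cells also had DMSO and 500 nM JQ1 for 24 hr. For the Th2 DMSO arrays the titles state 24 hr but the source names 6 hr, and these arrays enter as Th2 DMSO without a time. No condition had a replicate, and nothing says that arrays came from separate cultures or animals. The 3 reactivation pairs, or for the drugs the 4 combinations of cell type and state, stand in for replicates. For Th1 against Th2 the Th1 arrays of 6 and 24 hr and the states stand in, with 1 Th2 array per state. The p-values below therefore measure the spread between these settings, and the number of arrays limits their precision.

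Total RNA was labelled, and in bulk RNA fewer cells making a transcript and less of it per cell cannot be told apart. All 6 Th1 marker genes were higher in reactivated Th1 than Th2 cells (log2 differences of 0.64 to 4.23), and 5 of 6 Th2 markers were lower, Il1rl1 being the exception at 1.60. Of 4 B cell markers, 3 were above background on every DMSO array and all 4 were lower in the Th1 sample (-2.24 to -0.53), and the part of other cells in the Th1 against Th2 differences was not tested. Both CD8 T cell markers were higher in the Th1 sample (0.49 and 0.97). Of 4 myeloid markers, 2 were above background on every DMSO array, and all 4 were higher in the Th1 sample by 0.05 to 0.15. Both NK cell markers were above background on no DMSO array. The arrays lay on 3 slides. Each DMSO reactivation pair shared a slide, and so did the Th1 JQ1 arrays and their DMSO controls, whereas no flavopiridol array and no Th2 JQ1 array shared a slide with its own control. Slides did hold other treatments: 1 slide had the Th1 24 hr DMSO and the Th2 flavopiridol arrays, and another had the Th2 JQ1 arrays of both doses and the Th1 flavopiridol arrays.

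The name intergenic rests on the absence of a gene in the array files alone. A gene annotation of the same genome build was not used here, so distances to genes and overlaps with introns or later noncoding gene models were not analysed here, and probe sequences were not analysed here either. The named regions were long: the median length was 10262 bp for regions with a member and 3031 bp for regions without one. Of the members, 2795 carried the strand letter F, 3122 the letter R and 5 none. Which genome strand the letters stand for is not given in the sources used here.

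Members were dim. Their mean normalised Cy3 signal over the DMSO arrays, called the level below and given in log2 units, ran from 6.14 to 17.16 with a median of 6.93, against 8.77 for the RefSeq probes under the same rule. A level of 8 or more was reached by 1197 members (20.2%) and by 62.2% of those RefSeq probes. Brightness depends on the probe as well as on the RNA, so levels are not set against one another as abundances. They serve here to name the brightest members and to weight the RefSeq probes to the members' distribution of levels, in steps of 0.5 log2, and these weighted values are called RefSeq probes of like signal. The detection rule passed 624 members on exactly 3 DMSO arrays (median level 6.36), just inside its threshold, and left out 596 probes seen on exactly 2 (6.28), while 4332 members were above background on all 6. The rule also fixes part of the reactivation contrast, since 161 members were above background only on the 3 reactivated DMSO arrays and 155 only on the 3 unstimulated ones.

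Most members also gave signal in cells that had not been differentiated. In the naive reference, 4727 members (79.8%) were above background on all 24 arrays, and 209 on none. Repeated measurement of that 1 reference gave a median SD over arrays of 0.19 log2 for members (0.12 to 0.33 over 276 pairs of arrays) and 0.18 for RefSeq probes, both over probes above background in Cy5 on every array. The precision of the remaining members was not measured in this way.

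Many regions were read on both strands. Of 1067 regions with probes for both strands, 523 had members on both, 390 on 1 strand and 154 on neither. The fitted changes of the brightest 2 members of the same region and strand correlated across regions at r = 0.80 for reactivation, 0.68 for Th1 against Th2, 0.71 for flavopiridol and 0.82 for JQ1 (1335 to 1447 regions). For the brightest members of opposite strands r was 0.26, 0.20, 0.21 and 0.32 (495 to 523 regions), and over the 70 regions with both at a level of 8 or above it was 0.61, 0.42, 0.24 and 0.31. These are descriptions across regions on the same arrays, and neighbouring probes may read 1 RNA.

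Fewer position-named probes were above background with flavopiridol than with JQ1. On the 6 DMSO arrays 34% to 38.6% of all 16194 position-named probes were above background, and on the 4 arrays of 10 µM flavopiridol 17.8% to 21.7% were. The corresponding ranges were 20.3% to 26.3% for 1 µM flavopiridol, 27.5% to 36.7% for 500 nM JQ1 and 33.6% to 37.7% for 50 nM JQ1. All RefSeq probes went from 57.4% to 59.6% with DMSO to 45.9% to 48.1% with 10 µM flavopiridol. The members, which had to be seen with DMSO, went from 87.8% to 92.9% down to 44.7% to 54.4%, and RefSeq probes of like signal, chosen in the same way, from 87.4% to 91.5% down to 47.7% to 54%. The 2 classes thus lost about the same share at matched signal. Within the slide of the Th1 24 hr DMSO arrays, 37.2% and 35.6% of position-named probes were above background with DMSO, and at most 26.3% on the 4 Th2 flavopiridol arrays.

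**Figure D1:**
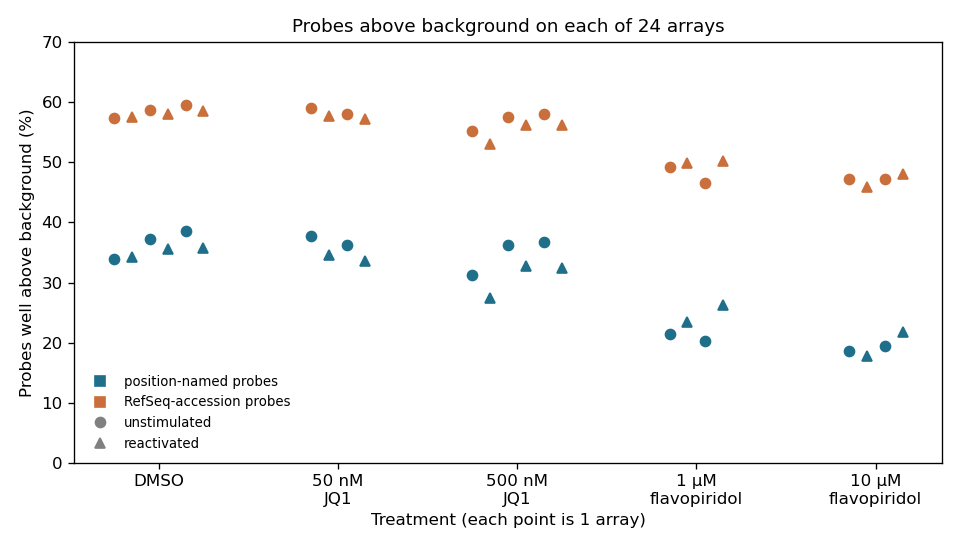
Percent of probes with a Cy3 signal well above background (vertical axis) on each of the 24 arrays, grouped by treatment, for all position-named probes and all RefSeq-accession probes. Circles are unstimulated and triangles reactivated cells. The 4 arrays of 10 µM flavopiridol sit at 17.8% to 21.7% for position-named probes, below every DMSO array (34% to 38.6%).

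Reactivation of cells without drug moved members in both directions. By limma with Benjamini-Hochberg adjustment over all 28265 probes tested, 758 of 5922 members were higher in reactivated cells (12.8%) and 844 were lower (14.3%), beside 18.8% higher and 22% lower among all probes tested. RefSeq probes of like signal were called at 16.2% and 21.2%. More members were higher than lower with the spike-in scalings, 1069 and 448 after centring (25.2% and 13.3% of all probes) and 1116 and 417 after loess with a spike-in shift (25.2% and 12.7%), and fewer after median centring, 507 and 968 (14.6% and 23.8%). Leaving out the reactivated Th1 24 hr array gave 391 and 497, beside 12.6% and 14.8% of all probes. Without the unstimulated one there were 461 and 464, beside 13.3% and 14.3%. Without the reactivated Th1 6 hr array there were 424 and 598, beside 14.2% and 17.6%. Of the 4332 members above background on all 6 DMSO arrays, 547 were higher and 669 lower (12.6% and 15.4%, beside 18.8% and 22%). That count leaves out the 161 members seen on the reactivated DMSO arrays alone and the 155 seen on the unstimulated ones alone. The detection rule itself made those members differ between the states. The median change was -0.01 for members and -0.03 for RefSeq probes of like signal, and in the 3 pairs the member median exceeded the RefSeq median by 0.02, 0.00 and 0.03. The calls lay at 276 loci with a member that rose and 306 with one that fell, 32 of them with both. Of 1447 named regions with at least 2 members on a strand, every such member rose in 91 and every one fell in 118. The same shares were not computed for RefSeq probes.

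The strongest rise was read by A_30_P01018532, a probe on the R strand of a 17.3 kb region. Its log2 ratio to naive cells was 0.01 and 5.46 in the unstimulated and reactivated Th1 6 hr samples, 0.45 and 6.19 in the Th1 24 hr samples and -0.24 and 2.69 in the Th2 samples. The unstimulated cells were thus near naive cells, and every reactivated sample was higher, the Th2 sample least so. The fitted change was 4.71 (SE 0.50, adjusted p = 0.000647). A_30_P01019478, on the F strand of another region, had the same order, at -0.20 and 4.33, then -0.17 and 5.82, then -0.49 and 1.58, a change of 4.20 (SE 0.63, adjusted p = 0.00244). The Th1 minus Th2 difference of neither passed its test (1.80, adjusted p = 0.144, and 1.90, adjusted p = 0.207).

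In a 51.7 kb region on the F strand all 5 probes were members and all 5 rose. One of them was A_30_P01023276, which was above background on no unstimulated DMSO array and on all 3 reactivated ones. Its ratios to naive were 0.06 and 4.24 in Th1 6 hr, 0.09 and 4.26 in Th1 24 hr and 0.04 and 4.22 in Th2 cells, and none of the unstimulated values was well above background. Since that side has only a bound, the rise was at least 14.3-fold, computed from the mean normalised reactivated signal over the lowest signal well above background on each unstimulated array. This probe passed the detection rule through the reactivated arrays alone, so it had to differ between the states and no p-value is given.

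A further locus was read on both strands. Its 3 members on the R strand rose by 3.72 to 3.89, and 6 members of overlapping names on the F strand by 3.18 to 3.52. A_30_P01032196, from an overlapping name of 0.112 kb on the F strand, had ratios of 3.21 and 6.41 in Th1 6 hr, 2.49 and 6.08 in Th1 24 hr and 1.31 and 6.38 in Th2 cells (3.95, SE 0.33, adjusted p = 0.000292). The unstimulated samples differed, and the reactivated ones met near the same ratio. Apart from A_30_P01018532, A_30_P01019478 and A_30_P01023276, whose rank rests on a value at background, the 5 largest fitted rises included A_30_P01019307 (4.14, adjusted p = 4.45e-05, above background on 2 of the 3 unstimulated arrays) and A_30_P01018420 (4.03, adjusted p = 5.6e-05).

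Of the 5 largest falls, 3 were probes of the same 0.655 kb region on the F strand, A_30_P01019086 (-2.68, SE 0.28, adjusted p = 0.000629), A_30_P01022977 (-2.57) and A_30_P01030378 (-2.46). A_30_P01019086 had ratios of -1.84 and -3.92 in Th1 6 hr, -1.72 and -4.07 in Th1 24 hr and -0.25 and -3.88 in Th2 cells. It was below the naive reference throughout, and the 3 reactivated samples lay lowest. The other 2 were A_30_P01025011 (-2.56, adjusted p = 0.000424) and A_30_P01019606 (-2.38, adjusted p = 0.000227). A region of 10 members on the F strand, picked out after its values were seen, fell as a whole, by 1.47 to 2.38 on the log2 scale.

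Few members passed the test between Th1 and Th2 cells in the 6 DMSO arrays, where the fit left 3 residual degrees of freedom. There, 32 of 5922 members were higher in Th1 (0.54%) and 33 were higher in Th2 cells (0.557%), beside 1.27% and 1.16% of all probes tested and 1.02% and 1.17% of RefSeq probes of like signal. The counts depended on the fit. Over 12 arrays that added both JQ1 doses 325 were higher and 421 lower in Th1 cells (5.54% and 7.18%, beside 11.2% and 12% of all probes), and spike-in centring of the DMSO arrays gave 20 and 327 (0.338% and 5.52%, beside 1.4% and 9.02%). Without a block for the state 0 members were higher in Th1 and 4 in Th2 cells (0.0637% and 0.131% of all probes), and with the Th1 6 hr and Th2 arrays alone, which share a slide, 3 and 5 were (0.506% and 0.426%). Leaving out each array in turn gave 10 to 28 higher and 9 to 51 lower, beside 0.595% to 1.18% and 0.595% to 1.06% of all probes. The calls of the main fit fell at 17 loci in each direction. The member median exceeded the like-signal RefSeq median by 0.01 to 0.06 in the 4 comparisons of single arrays, which reuse the same Th2 arrays.

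Higher in Th1 cells were A_30_P01031155 and A_30_P01022038, probes of 2 overlapping regions on the F strand. The nearest T-bet super-enhancer to them in the study's table is assigned to Mir29b-1, a precursor of miR-29b, and lies 87.6 kb from the first region and 151 kb from the second. A_30_P01031155 had ratios to naive of 3.81 and 2.02 in Th1 6 hr, 3.83 and 1.99 in Th1 24 hr and 1.73 and 0.49 in Th2 cells, unstimulated then reactivated. Th1 cells were higher than Th2 cells in each state, and reactivated cells were lower than unstimulated ones of the same type. The Th1 minus Th2 difference was 1.81 (SE 0.16, adjusted p = 0.00195), and the fall on reactivation was -1.62 (adjusted p = 0.000423). A_30_P01022038 differed by 1.77 (SE 0.23, adjusted p = 0.0101) but lost this call in the fit of the 4 arrays of 1 slide, as did A_30_P01027015. Without the state block all 5 members named as higher in Th1 cells lost their calls. The other 3 members were A_30_P01018981 (1.79, adjusted p = 0.00415), A_30_P01029977 (1.55, adjusted p = 0.00321) and A_30_P01027015 (1.29, adjusted p = 0.00903). Over all alternatives run for them, A_30_P01027015 lost its call in 4 of 16 and A_30_P01022038 in 2 of 17.

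All 5 largest differences toward Th2 cells came from 1 region of 51.3 kb on the F strand, with 10 probes of which 7 were members. A_30_P01022109 had ratios of -0.31 and -0.30 in Th1 6 hr, -0.58 and -0.53 in Th1 24 hr and 1.48 and 1.05 in Th2 cells. The Th1 samples were all below and the Th2 samples all above naive cells, with little between the states (-1.69, SE 0.16, adjusted p = 0.00288). The other 4 differed by -1.65 to -1.25, and A_30_P01025547, the least of them, lost its call without the state block and within 1 slide. The Th1 to Th2 order was also present on the arrays with drug, which did not choose these probes: with 50 nM JQ1 A_30_P01022109 was at -0.07 and -0.10 in Th1 and at 1.41 and 1.03 in Th2 cells, and with 10 µM flavopiridol at 0.97 and 0.81 and at 1.53 and 1.44.

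Between the reactivated Th1 6 hr and Th2 DMSO samples, 28 members were at least 2-fold higher in Th1 and 22 at least 2-fold higher in Th2 cells, beside 1.72% and 1.51% of all probes. In the reactivated samples with 50 nM JQ1, which did not choose them, 13 of the 28 (46.4%, like-signal RefSeq 63.2%) and 15 of the 22 (68.2%, like-signal RefSeq 57.5%) were again 2-fold apart the same way, beside 1.45% and 1.2% of all probes. With 500 nM JQ1 these were 13 of 28 and 5 of 22 (46.4% and 22.7%, like-signal RefSeq 35.5% and 39.8%, background 1.5% and 1.24%). With 10 µM flavopiridol they were 8 of 28 and 2 of 22 (28.6% and 9.09%, like-signal RefSeq 37.9% and 19.8%, background 4.85% and 3.3%).

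Flavopiridol split the class. At 10 µM for 6 hr, 1431 of 5477 members tested were higher than with DMSO (26.1%) and 817 were lower (14.9%), beside 19.9% and 25.5% of all 27949 probes tested and 17.5% and 19.8% of RefSeq probes of like signal. These values compare each probe with the bulk of the array, and the direction depends on the scaling. The all-probe median change was -0.07 after loess, -0.66 after centring each array on its median and -1.29 after centring on the spiked-in control RNA. With median centring 217 members were higher (3.96%) and 2695 lower (49.2%), beside 4.31% and 58.4% of all probes, with spike-in centring 10 and 5013 (0.183% and 91.5%, beside 0.147% and 89.9%), and with loess followed by a spike-in shift 253 and 2511 (beside 2.88% and 52.8%). After loess the spike-in probes lay at -0.77 to -0.27 with DMSO and at -0.19 to 0.63 with 10 µM flavopiridol, that is, higher against the cells' RNA with the drug. With slide as a random block 1035 members were higher and 463 lower (18.9% and 8.45%, beside 14% and 16.8% of all probes). A further 445 members were not tested, since they were above background on fewer than 3 of the 12 arrays of the fit.

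The classes were also compared with each other, a comparison that a shift of a whole array leaves as it is, so that median and spike-in centring give 1 gap by construction. The median change of members exceeded that of RefSeq probes of like signal by 0.09 (0.05 against -0.04), and by 0.09, 0.05, 0.12 and 0.11 in unstimulated Th1, reactivated Th1, unstimulated Th2 and reactivated Th2 cells. It was positive in each of the alternatives run, from 0.054 to 0.54. The gap widened with signal. Below a level of 6.5 both medians were 0.00, from 9 to 10 they were 0.09 for members and -0.38 for RefSeq probes, and at 10 or above they were 0.58 over 354 members and -0.42 over 6134 RefSeq probes. In that brightest group 53.1% of members were called higher and 22.6% lower, against 16.9% and 41.9% of RefSeq probes. At a level of 8 or above the median was 0.22 for members and -0.35 for RefSeq probes, and with spike-in centring it was -1.58 and -2.06. The order held in each of the 4 settings at this level, where the member medians were 0.24, 0.19, 0.21 and 0.37 and the RefSeq medians -0.33, -0.27, -0.39 and -0.32. At 1 µM, 1514 members were higher and 788 lower, beside 20.9% and 26.7% of all probes.

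**Figure D2:**
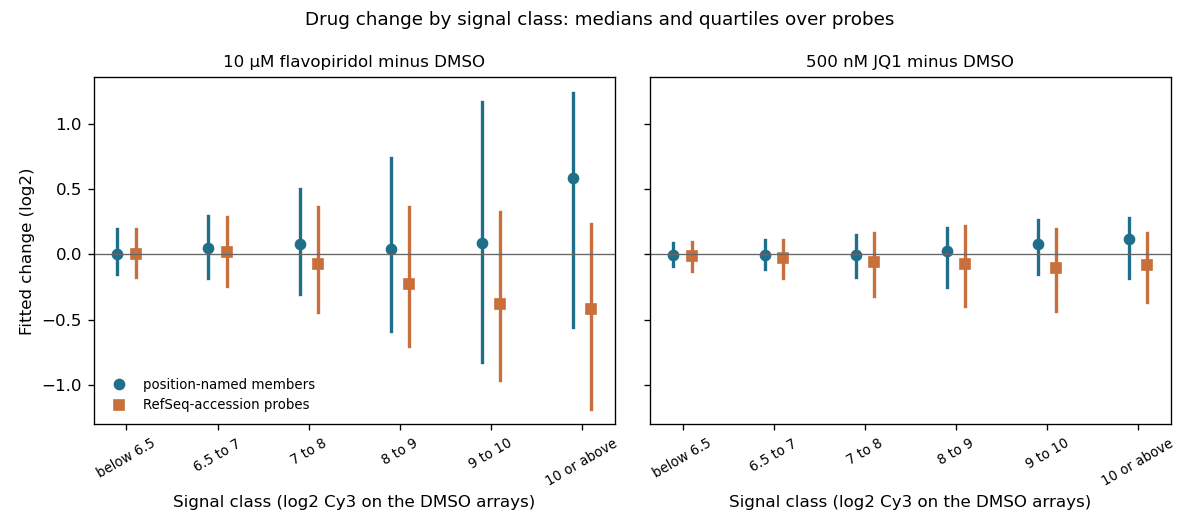
Fitted change with 10 µM flavopiridol (left) and 500 nM JQ1 (right) against DMSO, in log2 after loess (vertical axis), by class of level on the DMSO arrays (horizontal axis). Points are medians over probes and bars span the quartiles, for members and for RefSeq-accession probes. With flavopiridol the brightest members have a median of 0.58 and the brightest RefSeq probes one of -0.42.

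**Figure D3:**
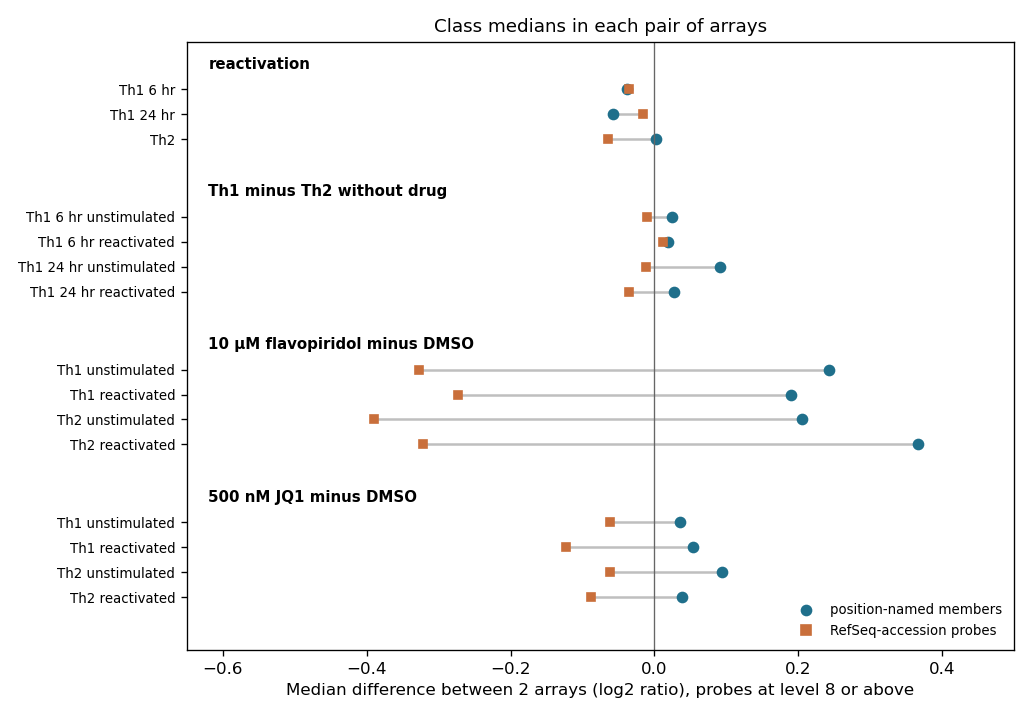
Median difference between 2 arrays, in log2 ratio units (horizontal axis), over members and RefSeq-accession probes at a level of 8 or above, for each pair of arrays of the 4 contrasts. In all 4 flavopiridol pairs the member median is above 0 and the RefSeq median below it after loess, the direction of the member median turning with median or spike-in centring.

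The largest rise belonged to A_30_P01022120, on the R strand. Over the 6 DMSO arrays its ratio to naive ran from -1.60 to -0.04. With 10 µM flavopiridol it was 4.14 and 4.38 in unstimulated and reactivated Th1 and 5.02 and 5.10 in Th2 cells, and with 1 µM it was 3.40 and 3.51 in Th1 and 4.54 and 4.48 in Th2 cells. No flavopiridol array overlapped a DMSO array, and Th2 cells were the higher ones. The fitted change was 5.40 (SE 0.35, adjusted p = 2.21e-05), and it was 3.84 after spike-in centring. It was the only member among the 5 probes of its region and strand. A_30_P01026786 rose by 3.84 (SE 0.24, adjusted p = 1.99e-05). A_30_P01021353, from a region that overlaps a T-bet super-enhancer assigned to Rn4.5s (a small noncoding RNA), rose by 3.21 (SE 0.18, adjusted p = 1.4e-05). A_30_P01021775 (2.99) and A_30_P01029653 (2.94) are probes of 1 region of 4 members, all of which rose. With 10 µM the ratios of A_30_P01021775 were 1.20 and 2.89 in unstimulated and reactivated Th1 and 0.73 and 2.68 in Th2 cells, against -1.21 and -0.74, and -1.37 and -1.14, with DMSO. The reactivated samples with drug were the highest.

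Some of the largest falls under flavopiridol were at probes far above naive cells with DMSO. A region of 27.1 kb on the F strand had 5 probes, all of them members, and all 5 fell, by 2.21 to 3.77 on the log2 scale. Its probe A_30_P01020075 had ratios of 5.17 and 4.74 in Th1 6 hr, 4.82 and 4.54 in Th1 24 hr and 4.79 and 4.55 in Th2 cells with DMSO. With 10 µM flavopiridol they were 1.63 and 1.21 in Th1 and 0.60 and 0.73 in Th2 cells. State made little difference, and with 500 nM JQ1 for 6 hr the ratios stayed at 4.43 to 5.05. The fall was -3.77 (SE 0.20, adjusted p = 1.17e-05), and the neighbouring probes A_30_P01018593 and A_30_P01028673 fell by 3.63 and 3.48. The largest fitted fall was that of A_30_P01032196, the reactivation probe described above, at -3.87 (SE 0.54, adjusted p = 0.000615), but it was above background on only 2 of the 4 arrays of 10 µM, both of reactivated cells. With 10 µM its ratios were -0.20 and 0.60 in Th1 and -0.36 and 1.78 in Th2 cells. A_30_P01033039, described with JQ1 below, was also among the 5 and was above background on 3 of the 4 arrays of 10 µM. The 5 named rises and the 5 named falls kept their sign and their call under each of the alternatives run for them, spike-in centring included.

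Members that were at least 2-fold higher after reactivation in 1 DMSO pair were followed in the other pairs, and members that fell were not followed. In the Th1 24 hr DMSO pair 233 members were at least 2-fold higher after reactivation, beside 7.48% of all probes. The other 2 DMSO pairs share the detection rule that made these probes members, so part of their shares was fixed by it, while the pairs with drug had no part in the choice. Of the 233, 60.9% were 2-fold higher with DMSO in Th1 6 hr cells (background 6.13%) and 73% in Th2 cells (9.39%). With 1 µM flavopiridol the share was 3.86% in Th1 (1.32%) and 6.01% in Th2 cells (3.47%), and with 10 µM it was 0% (0 of 232 with a value) in Th1 (0.365%) and 3.86% in Th2 cells (0.722%). With JQ1 it was 53.2% in Th1 (5.55%) and 69.1% in Th2 cells (8.29%) at 50 nM, and 36.1% in Th1 (3.81%) and 48.5% in Th2 cells (6.07%) at 500 nM. At 24 hr, 500 nM left 52.4% in Th1 cells (6.06%). RefSeq probes of like signal chosen in the same way gave 64.6% and 72.3% with DMSO, 0.627% and 1.75% with 10 µM flavopiridol and 29% and 45.2% with 500 nM JQ1 for 6 hr. Single pairs have no spread, so these shares carry no test.

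**Figure D4:**
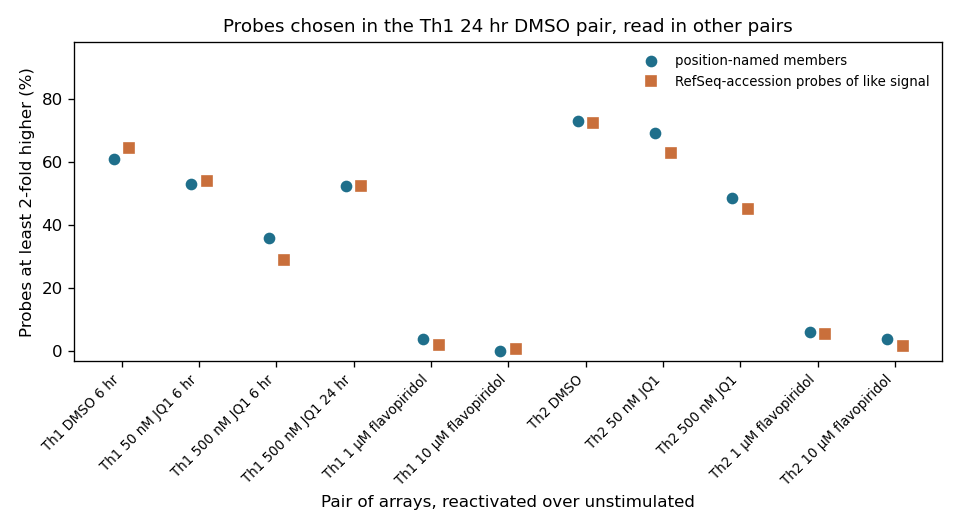
Percent of probes at least 2-fold higher in the reactivated than in the unstimulated array (vertical axis) in 11 pairs of arrays (horizontal axis), among the 233 members and the RefSeq-accession probes of like signal that were 2-fold higher in the Th1 24 hr DMSO pair. Both classes are above 60% in the DMSO pairs and at most 6.01% in the 4 flavopiridol pairs.

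JQ1 at 500 nM for 6 hr raised 710 of 5867 members tested (12.1%) and lowered 669 (11.4%), beside 15.7% and 21% of all 29784 probes tested. RefSeq probes of like signal were called higher at 13.9% and lower at 19.3%. The member median was 0.01 and the like-signal RefSeq median -0.04, a gap of 0.05 that lay at 0.02 to 0.05 in the 4 settings. In the Th1 6 hr arrays alone, which lie on 1 slide, 147 members were higher and 124 lower of 4630 tested (3.17% and 2.68%, beside 4.51% and 7.11% of all probes), and with slide as a random block 699 and 659 were, beside 4624 and 6201 of all 29784 probes. Without the block for cell type and state 126 members were higher and 49 lower (2.15% and 0.835%, beside 2.57% and 2.55% of all probes). The counts also moved with the scaling. After median centring 220 members rose while 1091 fell (4.93% and 33.1% of all probes), centring on spiked-in RNA left 22 rises and 711 falls (0.789% and 27.2%), and with Cy3 alone there were 1141 and 668 (19.9% and 21.2%). At a level of 8 or above, 21.6% of members were higher and 19.9% lower, against 19.2% and 32.6% of RefSeq probes. At 50 nM 0 members were higher and 1 was lower by limma, beside 0.104% and 0.0436% of all probes, and 385 members had an unadjusted p under 0.05. In the Th1 24 hr samples, compared with their own DMSO arrays, 541 of the 710 raised members (76.3%) were higher with 500 nM JQ1 in both states and 450 of the 669 lowered ones (67.3%) were lower in both, beside 34.8% and 27.7% of all members tested. For RefSeq probes called in the same way these shares were 79.6% and 80.4%.

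Interaction with the state was called at a smaller share of members than of all probes. Shares of RefSeq probes of like signal were not computed for it, so the dim signal of members is not allowed for. By an interaction term in limma, the effect of 10 µM flavopiridol was more positive in reactivated than in unstimulated cells at 188 members and more negative at 161 (3.43% and 2.94%), beside 5.68% and 5.12% of all probes. For 500 nM JQ1 these counts were 82 and 131 (1.4% and 2.23%), beside 2.71% and 3.73%. Between Th1 and Th2 cells limma called 0 members for either drug, beside 0% and 0.0107% of all probes for flavopiridol and 0% in each direction for JQ1, with 501 and 302 members at an unadjusted p under 0.05.

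The 5 largest falls under JQ1 lay in regions that overlap or lie beside 1 super-enhancer. Here and below a member is placed in a super-enhancer where its named region overlaps it, and the probe itself may lie outside. The study's table assigns it to Gm14005, which RefSeq lists as a synonym of Morrbid, a long noncoding RNA known to restrain transcription of the pro-apoptotic gene Bcl2l11. This super-enhancer holds 10 members in 3 regions, all on the R strand. With 500 nM JQ1 10 of 10 were lower (median -1.61), after reactivation 8 were higher and 0 lower (median 1.82), with 10 µM flavopiridol 8 were lower (median -1.80), and 0 differed between Th1 and Th2 cells. Of all probes 21% were lower with JQ1, 18.8% higher on reactivation and 25.5% lower with flavopiridol. A_30_P01026520 had ratios to naive of 1.34 and 4.0 in Th1 6 hr, 1.85 and 4.41 in Th1 24 hr and 1.12 and 4.80 in Th2 cells with DMSO. With 500 nM JQ1 they were 0.13 and 0.92 in Th1 6 hr, 0.91 and 1.61 in Th1 24 hr and -0.19 and 1.30 in Th2 cells, and with 10 µM flavopiridol 0.04 and 0.52 in Th1 and -0.07 and -0.04 in Th2 cells. Each reactivated JQ1 sample was below each reactivated DMSO sample, by more than 2 log2 units. Its fitted changes were -2.27 with JQ1 (SE 0.37, adjusted p = 0.000662) and 2.97 on reactivation (SE 0.23, adjusted p = 0.000227). It was above background on 2 of the 4 arrays of 500 nM JQ1 for 6 hr, both of reactivated cells, and on 0 of the 4 arrays of 10 µM flavopiridol, where its ratio is at background. At 50 nM JQ1 the ratios were 0.95 and 3.92 in Th1 and 0.73 and 4.16 in Th2 cells, nearer to the DMSO samples of the same state and cell type than those with 500 nM were.

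A_30_P01033039, on the R strand of the same region, was present before reactivation too. Its ratios were 3.05 and 4.57 in Th1 6 hr and 2.53 and 4.88 in Th2 cells with DMSO, 0.83 and 2.77 and then 0.04 and 2.86 with 500 nM JQ1, and 0.27 and 0.30 and then 0.22 and 0.08 with 10 µM flavopiridol. It was lower with each drug in both states. The fitted change fell by 2.13 with JQ1 (SE 0.11, adjusted p = 9.96e-07), and by 3.54 with flavopiridol (SE 0.41, adjusted p = 0.000246). A_30_P01019146 (-2.13, adjusted p = 0.000338) belongs to the same region and A_30_P01017626 (-2.17, adjusted p = 0.000921) to the next, 2.05 kb away. A_30_P01027827 (-2.22, adjusted p = 0.000174) lay 2.95 kb outside the super-enhancer. It and A_30_P01017626 were also above background on only 2 of the 4 JQ1 arrays, and A_30_P01019146 on 3. With flavopiridol A_30_P01027827 had ratios of 1.71 and 1.73 in Th1 and 0.43 and 0.48 in Th2 cells at 10 µM, and its flavopiridol change of -1.45 did not pass (adjusted p = 0.0588).

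The 5 largest rises under JQ1 lay in regions that overlap, or lie within 15.7 kb of, the super-enhancer assigned to Malat1, an abundant long noncoding RNA of nuclear speckles, and all 5 were on the R strand. A_30_P01019037, A_30_P01029006 and A_30_P01025818 are the 3 probes of 1 region of 1.82 kb. A_30_P01019037 had ratios of 0.76 and -0.75 in Th1 6 hr, 0.03 and -0.91 in Th1 24 hr and 1.28 and -0.96 in Th2 cells with DMSO. With 500 nM JQ1 they were 2.63 and 1.97 in Th1 6 hr, 1.07 and 0.70 in Th1 24 hr and 2.75 and 1.04 in Th2 cells. All 6 JQ1 samples were higher than the DMSO sample of the same setting. The change was 2.01 (SE 0.20, adjusted p = 2.87e-05), and the probe fell on reactivation by 1.57 (adjusted p = 0.00233). The other 2 probes of the region rose by 1.85 and 1.83.

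A_30_P01028538, the only member of this strand whose region overlaps the super-enhancer, belongs to a 77.1 kb region that also overlaps the regions of the other 4. It rose with JQ1 by 1.71 (SE 0.15, adjusted p = 1.12e-05) and fell with flavopiridol by 1.97 (SE 0.20, adjusted p = 0.000143). The other 10 members of overlapping regions were on the F strand. With JQ1, 10 of all 11 members were higher and 0 lower (median 0.56), beside 15.7% of all probes higher. With flavopiridol 5 were higher and 1, the R strand probe, was lower (median 0.37 after loess, negative after median or spike-in centring), and on reactivation 6 were lower. Of all probes 19.9% were higher and 25.5% lower with flavopiridol, and 22% were lower on reactivation. A_30_P01020935, on the R strand of a region 33.6 kb from the first, rose by 1.62 (SE 0.25, adjusted p = 0.000459). None of the 10 members named for JQ1 changed sign under an alternative run, 8 of the 10 lost their call without the block for cell type and state, and none was called at 50 nM.

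**Figure D5:**
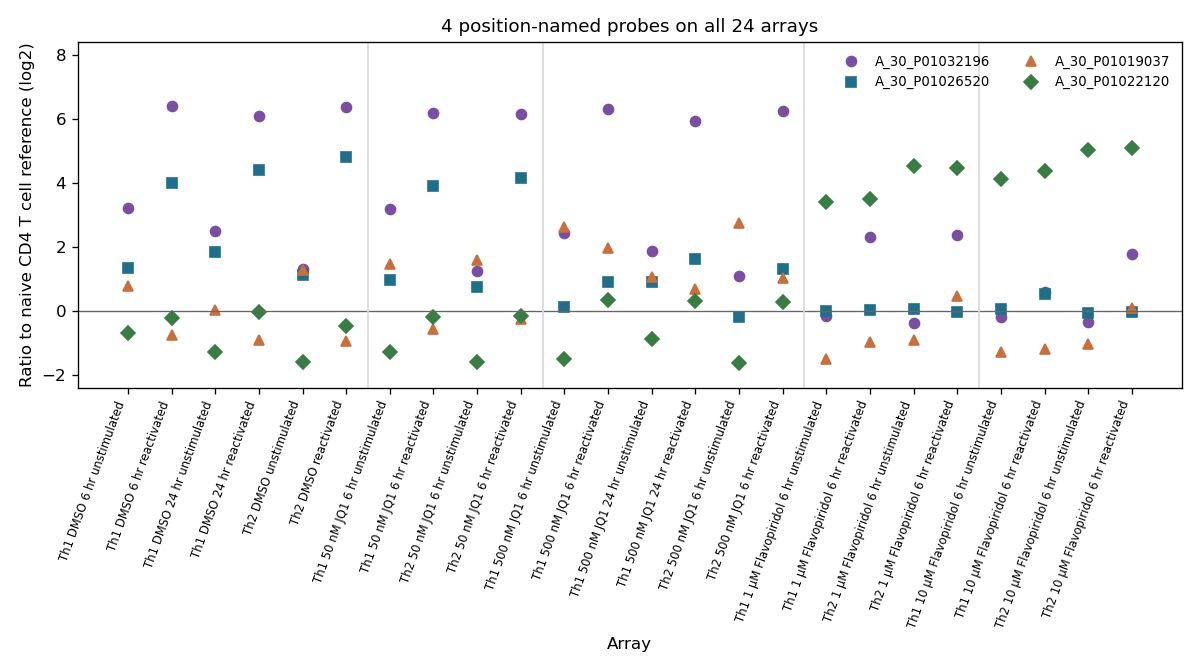
Ratio to the naive reference (log2, vertical axis) of 4 position-named probes on each of the 24 arrays (horizontal axis). A_30_P01032196 is at 6.08 to 6.41 on the reactivated DMSO arrays and at most 2.38 with flavopiridol, A_30_P01026520 loses its high reactivated ratios with 500 nM JQ1 and with flavopiridol, A_30_P01019037 is higher with 500 nM JQ1, and A_30_P01022120 is at 3.40 to 5.10 on the flavopiridol arrays alone.

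Across all T-bet super-enhancers of the study's table, 171 members in 42 regions overlapped super-enhancers assigned to 29 genes, which long regions do more readily. Members inside were called higher and lower in 24 and 30 cases on reactivation (14% and 17.5%, beside 18.8% and 22% of all probes). For Th1 against Th2 there were 1 and 0 (0.585% and 0%, beside 1.27% and 1.16%). With flavopiridol there were 53 and 23 of 159 (33.3% and 14.5%, beside 19.9% and 25.5%), and with JQ1 17 and 50 of 167. The JQ1 shares were 10.2% and 29.9%, beside 15.7% and 21% of all probes. Their median change with JQ1 was -0.09 and stayed below 0 under each scaling, whereas their median with flavopiridol, 0.23 after loess, turned negative with median centring, spike-in centring and the spike-in shift. Of the 50 lower members 10 were those of Gm14005 and 10 those of the group described next.

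In the super-enhancer assigned to 2310001H17Rik, a long noncoding RNA, the strands of 1 region were read apart. All 8 members on the R strand were lower after reactivation (-1.37 to -1.05) and lower with JQ1 (-1.47 to -0.70), beside 22% and 21% of all probes. Of the 7 on the F strand 0 passed on reactivation, and with JQ1 A_30_P01020339 (-0.30, adjusted p = 0.0172) and A_30_P01026548 (-0.27, adjusted p = 0.0237) were lower among the 5 tested. Another, A_30_P01029340, rose with flavopiridol by 1.40 (adjusted p = 0.000112) and did not pass with JQ1 (0.19, adjusted p = 0.143). At Smu1, a splicing factor gene, 5 of 5 members were lower with JQ1 (-0.75 to -0.38), while 4 were higher with flavopiridol after loess, a direction that turned with median and spike-in centring. At Rn4.5s 10 of 12 members were higher with flavopiridol (median 0.59), and this turned with the spike-in scalings. At 3300005D01Rik, a long noncoding RNA, 6 of 7 members tested were (median 1.44), which turned with spike-in centring alone.

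The super-enhancer assigned to Sla, an adaptor that dampens T cell receptor signalling, holds 6 members, of which 2 rose on reactivation (median 0.21) and with flavopiridol 1 rose and 1 fell (median -0.08). A_30_P01027097 rose there on reactivation by 3.69 (adjusted p = 7.89e-05) and fell with flavopiridol by 2.75 (adjusted p = 0.00918) and with JQ1 by 0.99 (adjusted p = 0.00138). At Mir29b-1, 3 of 7 members tested fell with flavopiridol, led by A_30_P01029853 (-2.14, adjusted p = 0.000735). Of all probes 25.5% were lower and 19.9% higher with flavopiridol, 21% were lower with JQ1 and 18.8% were higher on reactivation. These groups were picked out after their values were seen, and the few probes of a group may read 1 RNA.

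The calls of the 5 brightest members are given here, too few probes to set against the shares of all probes. A_30_P01021243 (level 17.2), A_30_P01022075 (16.9), A_30_P01031448 (16.6), A_30_P01026458 (16.5) and A_30_P01026611 (16.4) gave 0 calls on reactivation and 0 between Th1 and Th2 cells. With JQ1, 3 of them passed, A_30_P01026611 at 0.73 (adjusted p = 0.000102), A_30_P01022075 at 0.35 (adjusted p = 0.00317) and A_30_P01021243 at -0.41 (adjusted p = 0.00204). With flavopiridol A_30_P01026611 alone passed, at -0.51 (adjusted p = 0.0402). Of all probes 18.8% were higher and 22% lower on reactivation, and 1.27% and 1.16% in Th1 against Th2 cells. These shares were 15.7% and 21% with JQ1 and 19.9% and 25.5% with flavopiridol. The 5 brightest members inside super-enhancers were A_30_P01024756 at Klhl25, A_30_P01029297 and A_30_P01027058 at Mrpl33, A_30_P01020383 at Rn4.5s and A_30_P01033039. The first 4 of these were higher with flavopiridol after loess, by 0.49 to 1.54. The medians over all members at Klhl25, Mrpl33 and Rn4.5s turned negative with spike-in centring and the spike-in shift. Those at Klhl25 and Mrpl33 did so with median centring too.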

How the data were processed

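Total RNA of 24 samples was labelled with Cy3 and hybridised against Cy5-labelled naive CD4+ T cell RNA on 2-colour arrays. The deposited scanner files hold median intensity and background intensity per spot and a log10 ratio, extracted with Feature Extraction 10.7.1.1 per the file headers (probe names on mm9). A deposited series table of log2 values was an alternative. Intensities were background-corrected (normexp, offset 50), loess-normalised within each array with controls and outlier flags at weight 0, turned to log2 Cy3 over Cy5, and averaged over spots of a probe. The Cy3 level came from Aquantile scaling between arrays. Testing required a Cy3 signal well above background on 3 or more arrays of the fit.

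Contrasts were fitted with limma 3.58.1 (R 4.3.3) with pair, state or context as a block, and a probe was called at a Benjamini-Hochberg adjusted p under 0.05 over all probes tested. Tests were two-sided. Simulated data had 200 changed probes among 27889 to 29769, with no effect at the rest. Of probes changed by 2 log2 units 78.8%, 80.3%, 89.4% and 100% were recovered for reactivation, Th1 against Th2, flavopiridol and JQ1. Of those changed by 1, 20.9%, 31.3%, 52.2% and 92.5% were. In the data more probes than this were called in each contrast, so these rates do not give the power of the real fits. Members and lists were chosen with earlier results of these data known. Named probes are, per contrast, the 5 largest rises and falls among called members that had the same sign in every pair and were above background on every array of the higher side, plus the 5 brightest overall and inside super-enhancers. Members on chromosome 18 are counted and not named. The rule also covers members near a panel of T cell genes, which could be sought through the super-enhancers' closest genes alone and gave 0 members. Super-enhancer positions (mm9) and their closest genes come from the study's supplementary table. Alternatives are given in the closing section. No paired analysis by replicate number was made, since every condition has 1 array.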

Additional observations from a re-analysis of the deposited data

Results flagged for a closer look

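The effect of each drug differed between states at some members, a smaller share than of all probes, without allowance for the dim signal of members. By an interaction term in limma, 188 members had a more positive and 161 a more negative effect of 10 µM in reactivated than in unstimulated cells (3.43% and 2.94%, with 976 at an unadjusted p under 0.05), beside 5.68% and 5.12% of all probes. The effect of 500 nM JQ1 was more positive in reactivated cells for 82 members and more negative for 131 (1.4% and 2.23%, with 944 unadjusted), beside 2.71% and 3.73%. The interaction with cell type gave 0 members for either drug by limma (501 unadjusted for flavopiridol and 302 for JQ1).

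Outside the class, 4 of the 8206 position-named probes that were above background on no DMSO array were above it on at least 3 of the 4 arrays of 10 µM flavopiridol, as were 7 RefSeq probes.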

How the results depend on the processing

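Each contrast was run under the alternatives listed here, and the cause of a change was not tested. Of the 10 members named per contrast, none changed sign. Over all their alternatives 782 values kept the call and 29 lost it. For reactivation, spike-in centring gave 448 lower members and loess with a spike-in shift 417, beside 13.3% and 12.7% of all probes. The deposited table gave 207 higher and 301 lower of 1367 members tested (15.1% and 22%, against 12.8% and 14.3% in the main fit), beside 21.6% and 24.8% of all probes. Leaving out the Th1 24 hr pair gave 383 and 465, beside 13% and 15%. The gap to RefSeq probes of like signal was 0.03 with the scanner software's ratio and turned to -0.057 in the deposited table.

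For Th1 minus Th2, higher members numbered 20 with spike-in centring, 17 with the spike-in shift, 18 with the software's ratio, 19 with Cy3 alone, 9 in the deposited table (of 1367), 21 with detection set on 50 nM JQ1, 0 without a block, 325 over 12 arrays and 3 within 1 slide. Lower members numbered 52 with median centring, 327, 223, 16, 13 and 8 in the same order from spike-in centring to the table, 4 without a block, 421 over 12 arrays and 5 within 1 slide. From spike-in centring to the table, 1.4%, 0.966%, 0.577%, 0.828% and 1.07% of all probes were higher. Those lower were 9.02%, 5.57%, 0.495%, 0.821% and 1.09%, and 2.07% with median centring. All probes were called at 0.0637% and 0.131% without a block, 11.2% and 12% over 12 arrays, and 0.506% and 0.426% within 1 slide. Members tested numbered 5867 over 12 arrays, 5174 within 1 slide, 4489 with detection set on 50 nM JQ1 and 5922 where no other number is given. With that detection 1.27% of all probes were higher. The gap was 0.059 with the software's ratio, 0.0065 in the table and 0.0092 over 12 arrays.

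For flavopiridol, the members higher and lower were 217 and 2695 with median centring, beside 4.31% and 58.4% of all probes. Centring on spike-ins gave 10 and 5013, beside 0.147% and 89.9%, and the spike-in shift 253 and 2511, beside 2.88% and 52.8%. The deposited table gave 297 and 280 of 1294 members (23% and 21.6%, against 26.1% and 14.9% in the main fit), beside 18.5% and 30.8% of all probes. Th1 arrays alone, an alternative chosen after seeing the data, gave 852 and 259 of 3650 (23.3% and 7.1%, beside 16.1% and 18.4% of all probes). Lower members numbered 1531 with the software's ratio, 525 of 5331 over 8 arrays and 463 with slide as a random block. Of all probes 27.4%, 19.7% and 16.8% were lower there. Of the 2160 members above background on every array, a filter that uses the drug arrays too, 1172 were higher and 184 lower. These were 54.3% and 8.52%, beside 28.1% and 26% of all probes. The gap was 0.054 with median and 0.054 with spike-in centring, 0.135 with Cy3 alone, 0.258 above background on every array, 0.142 and 0.136 with detection on all DMSO or 50 nM JQ1 arrays, 0.130 at 1 µM, 0.154 with signal from all arrays, 0.138 in Th1 alone and, chosen after seeing the data, 0.535 at a level of 8 or above.

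For JQ1, median centring gave 220 and 1091, beside 4.93% and 33.1% of all probes. Higher were 22 with spike-in centring, 21 with the spike-in shift and 1141 with Cy3 alone, beside 0.789%, 0.672% and 19.9%. The table gave 214 and 318 of 1359 (15.7% and 23.4%, against 12.1% and 11.4% in the main fit), beside 18.5% and 27.9% of all probes. No block gave 126 and 49, beside 2.57% and 2.55%, and 50 nM 0 and 1 by limma (385 unadjusted), beside 0.104% and 0.0436%. Th1 within 1 slide gave 147 and 124 of 4630, beside 4.51% and 7.11%, and Th1 alone 208 and 209 of 5396, beside 6.28% and 9.54%. Lower members numbered 409 of the 3683 above background on every array and 412 of 5690 over 8 arrays, beside 23.5% and 15.7% of all probes. The gap was 0.022 with median and 0.022 with spike-in centring, 0.107 with the software's ratio, 0.059 with Cy3 alone, 0.033 in the table, 0.030 on every array, 0.017 at 50 nM, 0.065 with signal from all arrays, 0.015 against noncoding accessions and 0.150 at a level of 8 or above.

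Leaving out each array in turn gave 391 to 649 higher and 464 to 750 lower members on reactivation (gap -0.0030 to 0.030). Of all probes 12.6% to 17.6% were higher and 14.3% to 20.8% lower. Th1 minus Th2 gave 10 to 28 and 9 to 51 (0.021 to 0.041), beside 0.595% to 1.18% and 0.595% to 1.06%. Flavopiridol gave 1146 to 1389 and 589 to 864 (0.086 to 0.112), beside 15.7% to 20.6% and 19.8% to 26.8%. JQ1 gave 526 to 685 and 515 to 633 (0.041 to 0.053), beside 13% to 15.3% and 17.3% to 20.5%. The 391 came without the reactivated Th1 24 hr array and the 464 without the unstimulated one.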
